A study of Homo sapiens with 24 samples.

Results

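Genes of Wnt signalling were followed here 1 by 1, because members of the set moved in opposite directions. The 10 genes were WNT5A and WNT5B (ligands), FZD7, LRP6 and ROR1 (receptors), CTNNB1 (the gene of β-catenin), LEF1 and TCF7 (nuclear factors), and AXIN2 and DKK1 (feedback genes). They were chosen by name from 66659 gene names listed over 4 tables of expression values. All 10 were listed for Hs578T and in both MDA-MB-231 experiments, and 9 were listed for HCC70, where LEF1 was not listed. RNA-Seq had been performed on 24 libraries, 3 per condition, from 3 established triple-negative breast cancer (TNBC) cell lines. Breast cancer stem-like cells (BCSCs) were sorted by FACS from Hs578T and from HCC70 as CD24-CD44+ and ALDH+ cells, and cells lacking both phenotypes were taken as non-BCSCs. MDA-MB-231 cells carried lentiviral control sgRNA (sgCtrl) or 1 sgRNA against KIF20A (KIF20A sg1, labelled a knockdown), or an empty vector (EV) or a vector labelled KIF20A overexpression (KIF20A OE). Both sorted lines were labelled wild type, and each experiment was 1 labelled batch. KIF20A is a mitotic kinesin, and the study asked how it bears on BCSCs. The labels name biological triplicates without saying how the cultures were separated.

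Wnt ligands are secreted proteins that bind Frizzled receptors such as FZD7. With LRP6 as co-receptor, they halt the destruction of β-catenin, which then enters the nucleus and switches on genes together with TCF7 and LEF1. AXIN2, a scaffold of the destruction complex, is induced by that signal and dampens it, and DKK1 is a secreted inhibitor that binds LRP6. WNT5A and WNT5B are paralogs best known for signalling without β-catenin, for which ROR1 is a receptor. In breast tumor cells the pathway is known for its part in self-renewal.

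Promoter letters are shown for members with the core letters described below, which left DKK1. They are also shown for the paralogs WNT5A and WNT5B, which moved in opposite directions. The RefSeq promoter table (GRCh38.p14) matched 7 of the 10 members with 10 windows of 250 bases before a start. The core letters CTTTGA of TCF/LEF binding motifs were searched on both strands. They were found in 1 of the 10 windows, that of DKK1, and in 11.2% of all 35116 windows of that length. The DKK1 window held 2 matches, which began 149 and 95 bases before the start and are shown in capitals. It is printed in full, and for each of the starts of WNT5A and WNT5B the last 100 bases are printed. A match is a description of letters only.
DKK1 chr10:52314031-52314280, plus strand: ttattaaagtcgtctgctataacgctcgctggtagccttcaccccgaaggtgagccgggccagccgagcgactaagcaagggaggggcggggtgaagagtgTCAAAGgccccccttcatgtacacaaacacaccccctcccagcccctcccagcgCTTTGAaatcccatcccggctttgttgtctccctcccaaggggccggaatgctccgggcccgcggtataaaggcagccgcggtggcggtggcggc
WNT5A chr3:55481399-55481498, minus strand: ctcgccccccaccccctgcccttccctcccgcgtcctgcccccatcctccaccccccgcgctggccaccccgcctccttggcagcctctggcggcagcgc
WNT5A chr3:55487307-55487406, minus strand: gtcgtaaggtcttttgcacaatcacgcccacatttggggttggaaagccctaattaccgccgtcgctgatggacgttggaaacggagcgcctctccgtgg
WNT5B chr12:1616956-1617055, plus strand: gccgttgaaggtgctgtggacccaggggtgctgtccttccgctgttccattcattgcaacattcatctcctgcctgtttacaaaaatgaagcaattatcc
WNT5B chr12:1629131-1629230, plus strand: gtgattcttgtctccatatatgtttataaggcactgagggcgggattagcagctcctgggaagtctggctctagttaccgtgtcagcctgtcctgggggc

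The 4 tables do not say which start was used. In GENCODE 44 on GRCh38, the ligand genes lie at chr3:55465715-55490539 on the minus strand (WNT5A, ENSG00000114251) and at chr12:1529891-1647212 on the plus strand (WNT5B, ENSG00000111186). The receptor genes lie at chr2:202033855-202038441 on the plus strand (FZD7, ENSG00000155760), chr12:12116025-12267044 on the minus strand (LRP6, ENSG00000070018) and chr1:63774017-64181498 on the plus strand (ROR1, ENSG00000185483). CTNNB1 (ENSG00000168036) lies at chr3:41194741-41260096 on the plus strand. LEF1 (ENSG00000138795) lies at chr4:108047545-108168956 on the minus strand and TCF7 (ENSG00000081059) at chr5:134114681-134151865 on the plus strand. AXIN2 (ENSG00000168646) lies at chr17:65528563-65561648 on the minus strand and DKK1 (ENSG00000107984) at chr10:52314281-52318042 on the plus strand. Of the exonic bases of AXIN2, 25.3% are shared on the same strand with another coding gene model, ENSG00000266076, so its level is uncertain where counting could split reads between them. Exons of opposite-strand genes cover 10.2% of DKK1, 5.2% of LEF1 and 2.08% of TCF7. The libraries were stranded, but the strand setting of the counting was not given in the sources used here. The other 6 members share no exonic base with another gene.

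Recovered reads per library numbered 24681218 to 33715701 for the sorted lines, 41424338 to 51018667 for sgCtrl and KIF20A sg1, and 15971297 to 22182293 for EV and KIF20A OE. KIF20A itself was 153, 173 and 156 CPM in sgCtrl and 122, 145 and 91.1 CPM in KIF20A sg1, which did not overlap, but its adjusted p was 0.69. In EV, KIF20A was 101.1, 142.9 and 123.7 CPM. Libraries labelled KIF20A OE held 1348.5, 269.4 and 896.2 CPM of it, but went against their label in their line markers. The 9 mesenchymal markers of MDA-MB-231 summed to 7051 to 7693 CPM in EV and to only 493 to 930 CPM in KIF20A OE, with CD44 at 523 to 788 and 0.125 to 1.23 CPM. The 6 kidney or neural markers summed to at most 0.0588 CPM in EV and to 1431 to 1999 CPM in KIF20A OE, with IRS4 at 0 and at 1219 to 1750 CPM. CDKN2A, a gene deleted in MDA-MB-231, was 0 in EV and 276 to 354 CPM in those libraries. The 5 immune or endothelial markers summed to 13.2 to 18.0 CPM in EV and to 0.321 to 35.8 CPM in those libraries. Every direction drawn from them below is between libraries so labelled, and the part of these markers in the results was not tested. In the other libraries the markers mostly followed the labelled lines. The 9 mesenchymal markers were each at a mean of 1 TPM or CPM or more in Hs578T and in both guide groups, and the 6 basal epithelial markers were so in HCC70. Of the 9 mesenchymal markers, 6 also reached that mean in HCC70 and in KIF20A OE, so it does not part the lines by itself. SALL1, a kidney or neural marker, was 7.52 to 9.00 TPM in Hs578T.

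Across the 8 conditions, WNT5A, DKK1 and LEF1 spanned the widest ranges. To set each gene beside itself, levels were expressed as CPM, recovered reads scaled to the depth of their own library. The tables were normalized separately and line, batch and table cannot be told apart, so the order is a description. WNT5A was highest in Hs578T, with 532 ± 20.3 CPM in non-BCSCs and 454 ± 19.7 in BCSCs (SD, n = 3 here and below). It followed in HCC70 with 118 ± 7.93 and 107 ± 6.28 CPM, whose ranges overlapped, and in KIF20A OE with 57.7 ± 27.7 CPM. In the remaining groups WNT5A was near 0, at 0.387 CPM in sgCtrl, 0.351 in EV and 0.0992 in KIF20A sg1, with neighbours overlapping. Its ligand paralog WNT5B spanned only 5.82-fold, from 47.7 ± 12.1 CPM in EV through 30.4 ± 0.445 in Hs578T BCSCs and 28.5 ± 2.17 in sgCtrl, which overlapped, down to 8.19 ± 1.96 in KIF20A OE.

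DKK1 was highest in the 3 MDA-MB-231 groups in which WNT5A was near 0, while Hs578T stood above HCC70 for both genes. DKK1 was 327 ± 90.2 CPM in sgCtrl, 272 ± 72.2 in KIF20A sg1 and 221 ± 58.3 in EV, with each neighbour overlapping the next. It was 12.0 ± 0.104 and 8.25 ± 0.838 CPM in BCSCs and non-BCSCs of Hs578T. In both HCC70 fractions and in KIF20A OE it lay between 1.04 and 1.74 CPM, and these groups overlapped. LEF1 ran from 44.2 ± 3.92 CPM in KIF20A OE through 21.6 ± 0.739 and 21.3 ± 0.824 in Hs578T to 12.9 ± 8.71 in EV. It was lowest in KIF20A sg1 and sgCtrl, at 1.14 ± 0.436 and 0.871 ± 0.334 CPM, which overlapped. The EV libraries, at 5.14 to 22.3 CPM, overlapped both Hs578T fractions. TCF7 was highest in Hs578T, at 55.3 ± 1.79 CPM in BCSCs and 53.0 ± 1.74 in non-BCSCs, which overlapped, and was at most 6.73 CPM in any library of sgCtrl, KIF20A sg1 or EV.

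The receptors were ordered differently again. FZD7 was 237 ± 19.8 CPM in sgCtrl and 224 ± 56.1 in KIF20A sg1, then 107 ± 1.60 and 102 ± 7.67 in Hs578T, 37.8 ± 6.49 and 33.9 ± 4.77 in EV and KIF20A OE, and 16.8 ± 0.719 and 15.7 ± 1.051 in HCC70. Within each of these pairs the ranges overlapped, and between pairs they did not. ROR1 was 166 ± 16.6 CPM in KIF20A sg1 and 142 ± 13.5 in sgCtrl, then 62.6 ± 1.91 and 58.4 ± 2.36 in Hs578T, and at most 29.9 CPM in any other library. LRP6 was highest in Hs578T, at 155 ± 2.89 CPM in BCSCs, and lowest in KIF20A sg1, at 36.2 ± 4.65, which overlapped sgCtrl. CTNNB1 spanned the least, 1.78-fold, from 706 ± 11.3 CPM in Hs578T non-BCSCs to 396 ± 6.08 in HCC70 BCSCs. Both ends overlapped the other fraction of their line, and single EV libraries ran from 584 to 848 CPM. AXIN2 spanned 6.40-fold, from 17.9 ± 4.87 CPM in KIF20A OE to 2.80 ± 0.722 in KIF20A sg1, which overlapped sgCtrl. The ranges of AXIN2 in KIF20A OE, both HCC70 fractions and Hs578T non-BCSCs overlapped one after the other. The 2 MDA-MB-231 control groups were themselves apart for FZD7, ROR1, LEF1, AXIN2, LRP6 and WNT5B, with no overlap between sgCtrl and EV.

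**Figure D1:**
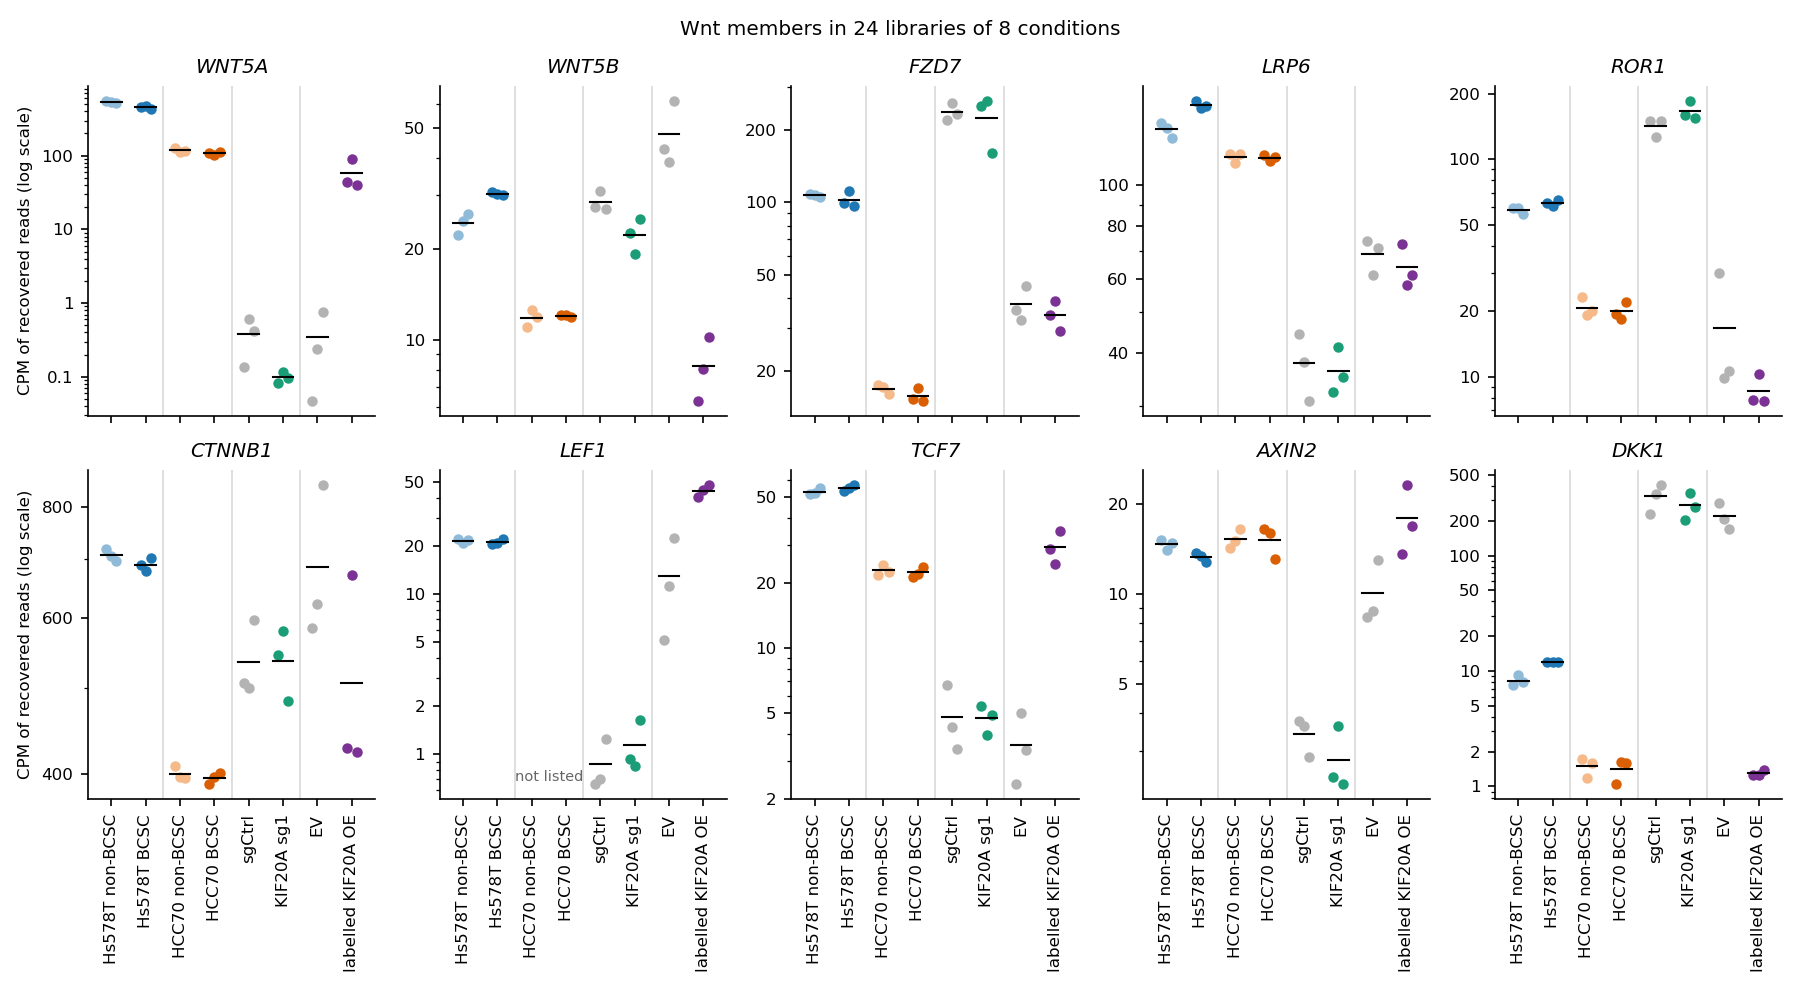
CPM of recovered reads (log scale, each panel with its own axis) of the 10 members in each of the 24 libraries; points are libraries, bars the means of 3, and grey lines separate the 4 tables. WNT5A lies under 1 CPM in sgCtrl, KIF20A sg1 and EV and between 39.7 and 89.6 CPM in libraries with the label KIF20A OE, where DKK1 falls from 170 to 284 CPM in EV to between 1.25 and 1.39.

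Levels of different genes were compared only in TPM, which is per transcript length. In Hs578T, CTNNB1 had the highest mean over the 6 libraries, 446 TPM, followed by WNT5A with 188 and FZD7 with 64.6, and AXIN2 was the lowest member with 7.85 TPM. In HCC70 the order again began with CTNNB1 at 265 TPM and WNT5A at 44.6, but LRP6 at 28.6 TPM stood above FZD7 at 10.4, and DKK1 was lowest at 2.01 TPM.

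In Hs578T, BCSCs had more DKK1 and WNT5B and less WNT5A than non-BCSCs, and the other 7 members did not pass the test. Of 13324 genes tested, 7.15% had an adjusted p under 0.05, 2.90% higher and 4.26% lower in BCSCs. Of the 10 members, 2 were called higher and 1 lower. The groups of 3 did not overlap for 5 of the 10 members, against 29.0% of all genes. The median log2 fold change was 0.0003 over the members and -0.01 over all genes. Fold changes here and below are of the deposited value plus 1 on the log2 scale, by limma, and understate the change of low genes.

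Among the ligands, WNT5A was 214, 205 and 193 TPM in non-BCSCs and 172, 176 and 167 TPM in BCSCs. Every BCSC library was below every non-BCSC library, and the log2 fold change was -0.25 ± 0.05 (SE, adjusted p = 0.0271). WNT5B was 23.3, 25.8 and 26.6 TPM in non-BCSCs and 31.5, 30.5 and 31.2 TPM in BCSCs. Here every BCSC library was above, and the log2 fold change was 0.29 ± 0.06 (adjusted p = 0.0247). The inhibitor DKK1 rose from 10.1, 12.3 and 10.4 TPM to 15.6, 15.5 and 15.8 TPM, a log2 fold change of 0.48 ± 0.07 (adjusted p = 0.00886). Among the receptors, LRP6 was 33.7, 32.8 and 30.2 TPM in non-BCSCs and 37.0, 35.3 and 36.8 TPM in BCSCs. The groups did not overlap, but the log2 fold change of 0.17 ± 0.05 had an adjusted p of 0.109. With values rescaled by median of ratios (a scaling to the typical gene), LRP6 passed (adjusted p = 0.0326), as it did with edgeR (0.00902) and DESeq2 (0.00111) on recovered reads.

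The feedback scaffold AXIN2 was 8.66, 8.01 and 8.21 TPM in non-BCSCs and 7.65, 7.36 and 7.23 TPM in BCSCs, with a log2 fold change of -0.14 ± 0.06 (adjusted p = 0.19). The groups did not overlap, yet the call was not made. FZD7 (log2 fold change -0.09), CTNNB1 (-0.06), LEF1 (-0.04), TCF7 (0.04) and ROR1 (0.08) overlapped between the fractions, and their 95% intervals lay between -0.21 and 0.21. DKK1 was called without any 1 library (adjusted p = 0.00838 to 0.0397). WNT5A and WNT5B each lost the call without non-BCSC replicate 1 or 2 or BCSC replicate 1 or 3, with adjusted p up to 0.13 and 0.104. Sums of line markers also stood apart between the fractions. The 9 mesenchymal markers summed to 5800 to 5960 TPM in non-BCSCs and 6079 to 6175 in BCSCs, and the 6 basal epithelial markers to 304 to 336 and 369 to 408 TPM. Single markers went both ways. VIM (3661 to 3737 and 3817 to 4016 TPM) and AXL (670.2 to 691.4 and 749.8 to 811.6) were higher in BCSCs. CAV1 (493.2 to 525.5 and 439.8 to 459.1 TPM) and S100A4 (150.9 to 168.8 and 102.2 to 113.9) were lower. KRT18, at 302.1 to 333.9 and 367.4 to 406.9 TPM, made up most of the basal epithelial sum. The part of these markers in the results was not tested. In bulk RNA, fewer cells of a type and less RNA per cell cannot be told apart.

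In HCC70, no member passed the test, and the fractions overlapped for all 9 members tested. Of 13218 genes, 2.83% were called, 2.28% higher and 0.552% lower in BCSCs, and 30.9% had groups that did not overlap. With edgeR or DESeq2 on recovered reads, no member had an adjusted p under 0.05 either. With limma, no member had an unadjusted p under 0.05, against 3134 of the 13218 genes. The largest difference among the members was that of WNT5A, 49.7, 42.5 and 45.8 TPM in non-BCSCs and 43.4, 39.9 and 46.4 TPM in BCSCs. Its log2 fold change was -0.09 with a 95% interval of -0.27 to 0.10 (adjusted p = 0.543). WNT5B was 11.7, 13.0 and 12.6 TPM against 13.3, 12.9 and 13.1, with a log2 fold change of 0.07 and an interval of -0.08 to 0.22. DKK1, near the low end of the members, was 2.37, 1.58 and 2.16 TPM against 1.46, 2.22 and 2.27, with a log2 fold change of -0.03 and an interval of -0.39 to 0.33. At this low level the added 1 shrinks a change more than in Hs578T, so the interval is not set against the value there. FZD7 (-0.04), ROR1 (-0.01), TCF7 (0.02), CTNNB1 (0.03), AXIN2 (0.04) and LRP6 (0.04) had intervals between -0.25 and 0.26. The members' median log2 fold change was 0.02, as was that of all genes. Of the 9 mesenchymal markers, 8 were listed, and they summed to 926 to 960 TPM in non-BCSCs and 1036 to 1061 in BCSCs. Single markers went both ways. EGFR (194.9 to 204.5 and 224.1 to 233.1 TPM) and MET (188.5 to 206.8 and 211.3 to 232.5) were higher in BCSCs, while VIM (5.88 to 6.65 and 4.56 to 5.79) was lower. The 6 basal epithelial markers summed to 5639 to 6213 and 5964 to 6234 TPM, which overlapped. The part of these markers in the results was not tested.

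Whether the change with sorting differed between the lines was tested by the interaction of fraction and line in the 12 sorted libraries, in which 7.11% of 11668 genes were called and 0 of 9 members. With limma, 2 of the 9 members had an unadjusted p under 0.05, as did 3129 of the 11668 genes. For DKK1 the BCSC effect was lower in HCC70 than in Hs578T by 0.51 ± 0.18 on the log2 scale, with values of -0.03 and 0.48 (limma, adjusted p = 0.0953). For WNT5B the effect was lower by 0.22 ± 0.08, with values of 0.07 and 0.29 (adjusted p = 0.115). For WNT5A the difference was 0.16 ± 0.10 (adjusted p = 0.30). With edgeR and DESeq2, 0 members were called. A difference between the lines was therefore not shown for any member, though Hs578T had 3 calls and HCC70 none. Line is also the batch and the table here, so they cannot be told apart.

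**Figure D2:**
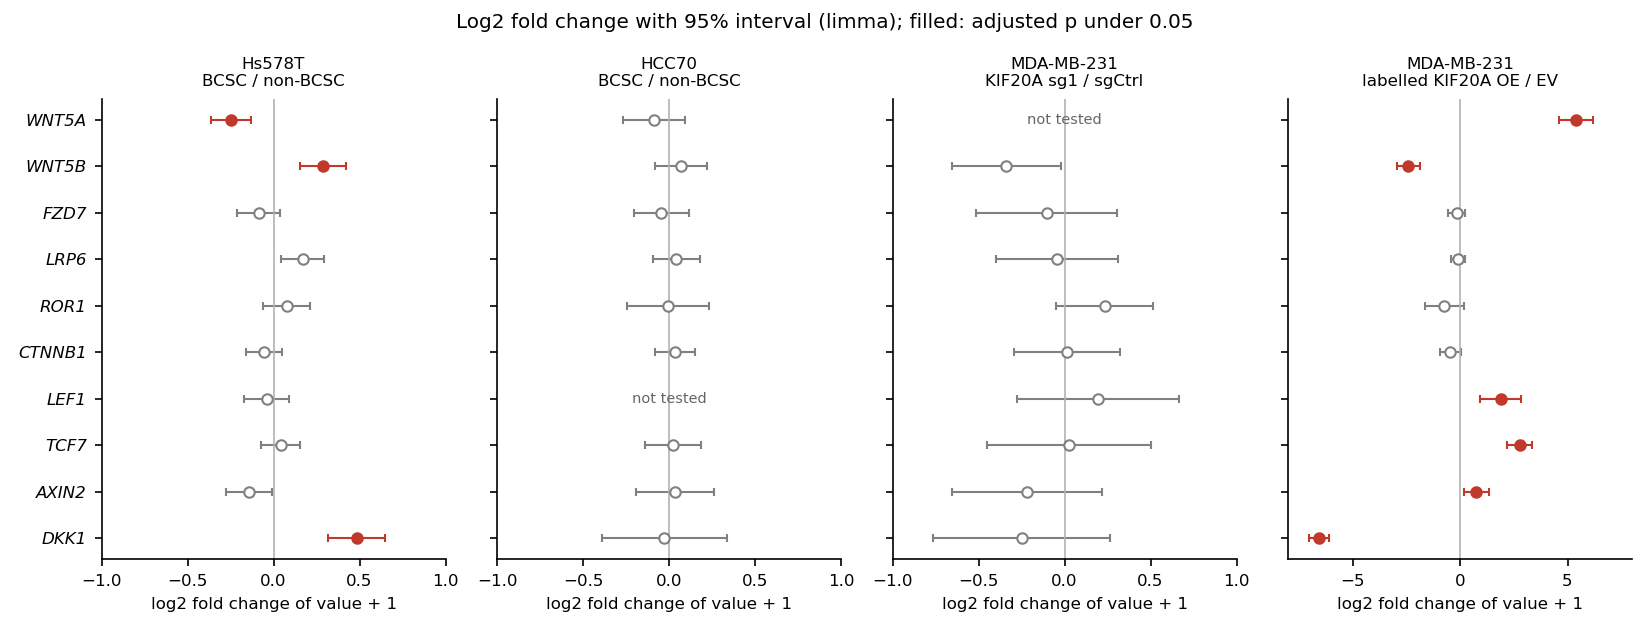
Log2 fold change of the value plus 1 (horizontal axis, wider in the last panel) with 95% intervals for each member in 4 comparisons of 3 against 3 libraries; filled points passed an adjusted p of 0.05. WNT5A and WNT5B lie on opposite sides of 0 in Hs578T (-0.25 and 0.29) and, with their signs exchanged, in the libraries labelled KIF20A OE against EV (5.38 and -2.40).

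To place the members among other Wnt genes, a list of 90 genes in 8 roles was used, which holds the 10 members and puts some genes, such as AXIN2 and DKK1, in more than 1 role. In Hs578T, 79 of the 90 were listed and 60 tested. Of these, 6 were called higher and 5 lower, 18.3% against the 7.15% of all genes, with a median log2 fold change of 0.02. Without the members, 8 of 50 were called. Calls lay among ligands, receptors and their regulators, and feedback genes: of 5 ligands, 1 was higher and 1 lower, and of 7 secreted inhibitors, 2 were higher and 1 lower. Of 12 receptors 1 was higher, and of 5 genes of receptor turnover and R-spondins 1 was higher and 2 lower. None of the 14 cytoplasmic relay genes or 10 nuclear factors was called, CTNNB1, AXIN2, LEF1 and TCF7 among them. SFRP1, a secreted inhibitor that binds Wnt ligands, rose from 57.7, 56.2 and 53.7 TPM to 81.2, 80.9 and 84.1 TPM (adjusted p = 0.00101). SFRP2, of the same family, fell from 2.80, 2.42 and 2.48 TPM to 0.821, 0.877 and 0.894 TPM (adjusted p = 0.00195). So the secreted inhibitors called in Hs578T, DKK1 among them, did not share a direction.

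Of 13 feedback or target genes in Hs578T, 2 were called higher and 3 lower. RNF43, a ubiquitin ligase that removes Frizzled receptors from the cell surface, fell from 7.66, 7.31 and 7.31 TPM to 4.34, 3.41 and 4.00 TPM (adjusted p = 0.00215). NKD1, a feedback inhibitor that binds Dishevelled, fell from 1.68, 1.73 and 1.72 TPM to 0.589, 0.513 and 0.637 TPM (adjusted p = 0.00525). LGR5, a receptor for R-spondins, fell from 3.96, 3.95 and 3.48 TPM to 2.70, 2.03 and 2.08 TPM (adjusted p = 0.0196). DKK1, in the same list, rose, as did MYC, a transcription factor gene, from 81.0, 82.9 and 79.1 TPM to 92.7, 99.9 and 93.3 TPM (adjusted p = 0.0257). The R-spondin gene RSPO2 (log2 fold change 0.37, adjusted p = 0.0396) and the receptor gene FZD4 (0.25, adjusted p = 0.0418) also rose. In HCC70, 51 of the list were tested and 1 was called: WNT11, a ligand, fell from 66.9, 70.1 and 66.8 TPM to 52.9, 55.5 and 49.8 TPM (log2 fold change -0.36, adjusted p = 0.025). That share, 1.96%, was close to the 2.83% of all genes.

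**Figure D3:**
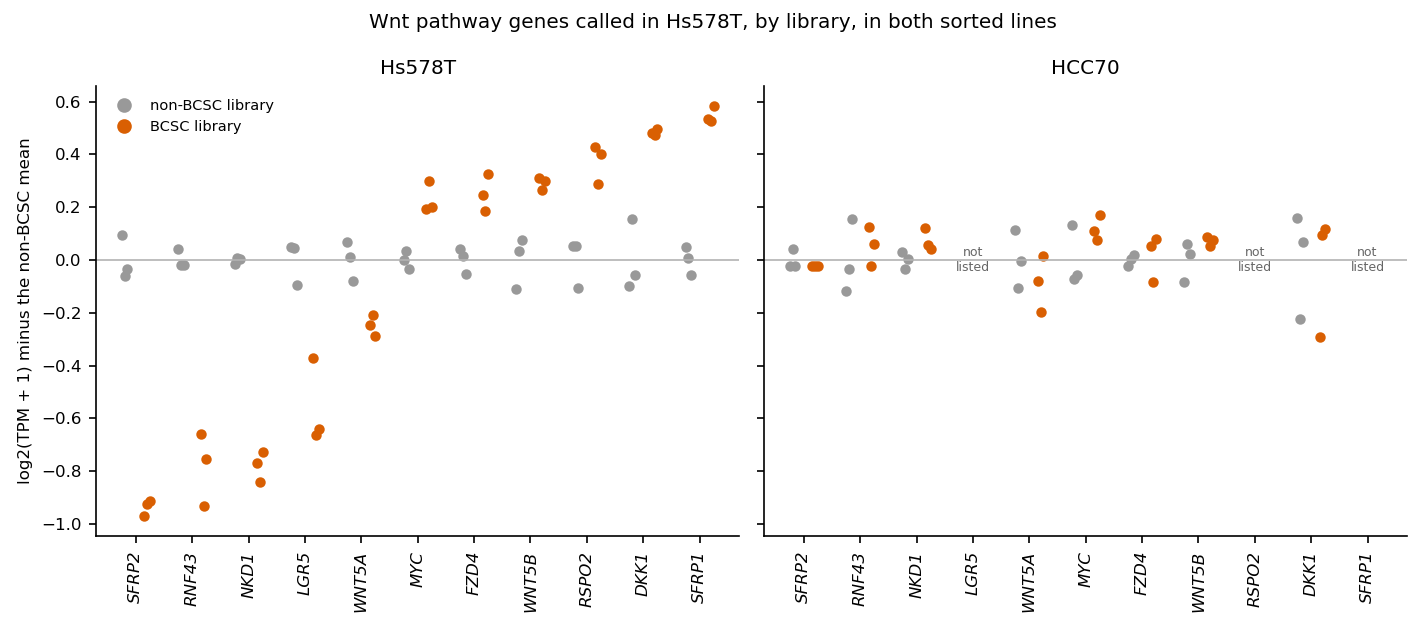
The 11 genes of the Wnt list called in Hs578T, as log2(TPM + 1) minus the mean of the 3 non-BCSC libraries (vertical axis), with a point per library, in Hs578T and in HCC70. The BCSC libraries of Hs578T lie off the non-BCSC libraries for all 11, as their choice requires, while in HCC70, where LGR5, RSPO2 and SFRP1 were not listed, DKK1, WNT5A and WNT5B overlap between the fractions.

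With KIF20A sg1, no member passed the test. Of 12852 genes tested, 0.00% were called by limma, with 899 at an unadjusted p under 0.05, while edgeR on recovered reads called 0 and DESeq2 called 16, none of them a member. Groups did not overlap for 2 of the 9 members tested, WNT5B and ROR1, against 13.0% of all genes. WNT5B was 26.9, 31.4 and 27.2 CPM in sgCtrl and 22.6, 19.7 and 24.8 CPM in KIF20A sg1. Its log2 fold change was -0.34 ± 0.14 (95% interval -0.66 to -0.02, adjusted p = 0.69), the 1 member with an unadjusted p under 0.05. ROR1, its receptor in signalling without β-catenin, was 147, 128 and 150 CPM in sgCtrl and 160, 190 and 152 CPM in KIF20A sg1, with a log2 fold change of 0.23 ± 0.13 (adjusted p = 0.703). The 2 differences were of opposite sign, and neither survived the adjustment.

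WNT5A was near the limit of detection in this experiment, with 6, 30 and 21 reads in sgCtrl and 4, 6 and 4 reads in KIF20A sg1. These are 0.132, 0.615 and 0.421 CPM against 0.0836, 0.121 and 0.0954 CPM. The groups stood apart only by the scaling to depth, as sgCtrl replicate 1 and KIF20A sg1 replicate 2 had 6 reads each. WNT5A did not reach the mean of 1 needed for the test, and by limma with no minimum its adjusted p was 0.855. LEF1, at 0.636 to 1.62 CPM in single libraries, just reached it and had a log2 fold change of 0.19 (interval -0.28 to 0.66). DKK1 was 225, 344 and 412 CPM in sgCtrl and 204, 358 and 260 CPM in KIF20A sg1, groups that overlapped, with a log2 fold change of -0.25 and an interval of -0.77 to 0.27. Single libraries moved this value of DKK1, from -0.50 without sgCtrl replicate 1 and -0.46 without KIF20A sg1 replicate 2 to -0.062 without sgCtrl replicate 3 and -0.058 without KIF20A sg1 replicate 1. AXIN2 was 3.69, 3.67 and 2.87 CPM against 2.45, 3.73 and 2.29 (-0.22, interval -0.66 to 0.22). CTNNB1 had a log2 fold change of 0.01 with an interval of -0.30 to 0.32. FZD7 (-0.10), LRP6 (-0.04) and TCF7 (0.02) had intervals between -0.51 and 0.50. Changes inside these intervals were not excluded with 3 libraries a group. Of the Wnt list, 55 of 90 genes were tested and none was called by limma. Their median log2 fold change was -0.08, against 0.002 for all genes.

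In the libraries labelled KIF20A OE, WNT5A, TCF7, LEF1 and AXIN2 were higher than in EV, and DKK1 and WNT5B were lower. These libraries differ from EV in most genes: of 15265 genes tested, 69.7% were called, 46.2% higher and 23.4% lower, and 74.1% had groups that did not overlap. The 6 called of 10 members, 4 higher and 2 lower, were thus no larger a share than that of all genes, and the same 6 did not overlap between groups. The median log2 fold change was 0.37 over all genes and -0.13 over the members. Median-of-ratios scaling brought that of all genes to 0.04, with which 34.2% of genes were called higher and 32.5% lower.

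WNT5A had 1, 5 and 13 reads in EV, or 0.0476, 0.242 and 0.764 CPM, and 698, 1988 and 742 reads in KIF20A OE, or 43.7, 89.6 and 39.7 CPM. Its log2 fold change was 5.38 ± 0.34 (adjusted p = 3.60e-06) and, at counts this low in EV, depended on the pseudocount and tool: it was 7.06 with edgeR on recovered reads. WNT5B moved the other way, from 42.7, 38.8 and 61.4 CPM in EV to 6.32, 8.02 and 10.2 CPM, a log2 fold change of -2.40 ± 0.23 (adjusted p = 3.82e-05). DKK1 was 284, 209 and 170 CPM in EV and 1.25, 1.26 and 1.39 CPM in KIF20A OE, the latter from 20, 28 and 26 reads. On the log2(value + 1) scale this was the largest difference of any member in any comparison, with a log2 fold change of -6.56 ± 0.20 (adjusted p = 1.11e-07). The DKK1 promoter printed above was chosen for its CTTTGA core, not for this difference, and no binding was measured here.

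Both nuclear factors rose. TCF7 was 2.33, 4.98 and 3.35 CPM in EV and 28.9, 24.5 and 35.0 CPM in KIF20A OE, with a log2 fold change of 2.77 ± 0.25 (adjusted p = 2.79e-05). LEF1 varied widely in EV, at 5.14, 11.3 and 22.3 CPM, and was 40.2, 44.4 and 48.0 CPM in KIF20A OE, with a log2 fold change of 1.90 ± 0.42 (adjusted p = 0.00363). The feedback gene AXIN2 was 8.38, 8.80 and 13.0 CPM in EV and 13.6, 23.2 and 16.9 CPM in KIF20A OE, groups that barely stood apart, with a log2 fold change of 0.77 ± 0.25 (adjusted p = 0.023). AXIN2 lost its call without EV replicate 1 or 2 or KIF20A OE replicate 2 or 3 (adjusted p up to 0.0839), and also after rescaling (log2 fold change 0.43, adjusted p = 0.144) and with edgeR (adjusted p = 0.164) and DESeq2 (0.157).

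The other 4 members were not called on the deposited scale. CTNNB1 was 584, 622 and 848 CPM in EV and 429, 670 and 424 CPM in KIF20A OE (log2 fold change -0.45, adjusted p = 0.0953). ROR1 was 29.9, 9.91 and 10.6 CPM in EV, where the first library stood apart, and 7.83, 10.2 and 7.76 CPM in KIF20A OE (-0.72, adjusted p = 0.125). Without that first library the log2 fold change of ROR1 was -0.24 (adjusted p = 0.362), and without EV replicate 2 it was -0.99 (adjusted p = 0.064). FZD7 was 35.8, 32.6 and 45.1 CPM against 33.9, 38.7 and 29.2 (-0.15, adjusted p = 0.458). LRP6 was 73.7, 61.4 and 71.1 CPM against 72.6, 58.2 and 61.4 (-0.10, adjusted p = 0.516). All 4 of these groups overlapped. After rescaling, each of the 4 was called lower: CTNNB1 at -0.81 (adjusted p = 0.0077), ROR1 at -1.06 (0.0467), FZD7 at -0.51 (0.0229) and LRP6 at -0.46 (0.0178). Under that scaling 3 members were called higher and 6 lower, and no member changed sign. With edgeR and DESeq2 on recovered reads the same 4 members were also called.

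**Figure D4:**
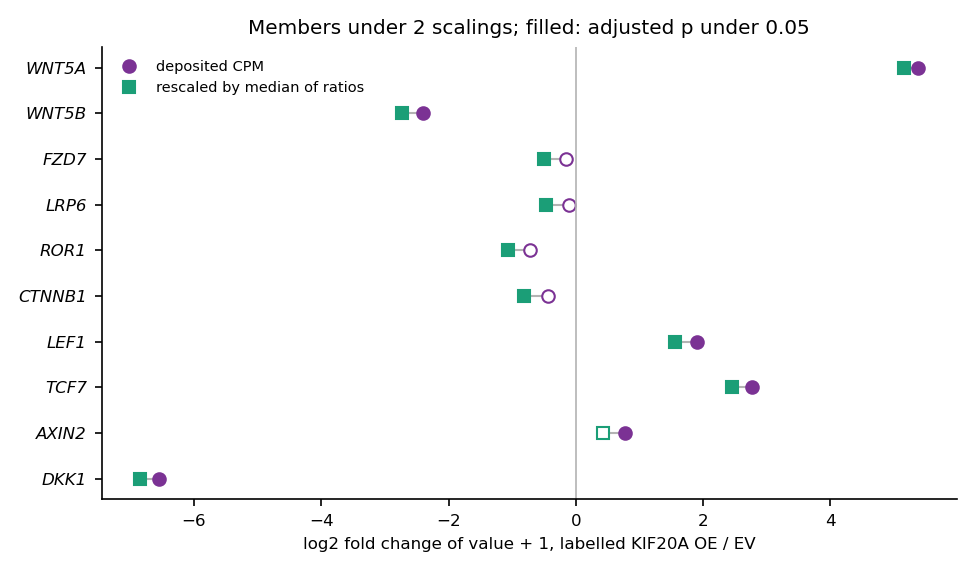
Log2 fold change of the value plus 1 of the 10 members between the libraries labelled KIF20A OE and EV (horizontal axis) with the deposited CPM (circles) and with median-of-ratios scaling (squares); filled symbols passed an adjusted p of 0.05. Every member shifts down with rescaling without crossing 0, AXIN2 loses its call (0.77 to 0.43), and FZD7, LRP6, ROR1 and CTNNB1 gain one.

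Of the wider Wnt list in the libraries labelled KIF20A OE, 68 genes were tested, of which 36 were called higher and 18 lower, or 79.4% against 69.7% of all genes. After rescaling, 27 were higher and 28 lower. The median log2 fold change was 0.51, also with 6 genes that had no read in EV set at their lower bound. By role, on the deposited scale only, 5 of 9 ligands were higher and 3 lower, and 6 of 16 receptors higher and 6 lower. Of 10 nuclear factors, 8 were higher and 1 lower, and of 14 cytoplasmic relay genes 7 were higher and 2 lower. Of 6 genes listed as secreted inhibitors, 4 were higher, and DKK1 was the 1 that was lower. The list counts the membrane proteins KREMEN1 and KREMEN2 among these, and both were higher. Both ligand export genes were lower. On the log2(value + 1) scale, which compresses genes without reads in EV, and among genes with a mean of at least 5 CPM in 1 group, the largest rises were those of WNT5A, of KREMEN1, a receptor for DKK proteins (1.38, 1.21 and 3.06 CPM in EV, 74.8, 100.2 and 74.7 in KIF20A OE), and of NKD2, a feedback inhibitor. NKD2 had no read in EV and 15.4, 19.2 and 17.9 CPM in KIF20A OE, at least 342-fold higher against a floor of 3 reads over the 3 EV libraries. By the same bound, NKD1 (at least 250-fold), ROR2 (at least 240-fold) and FZD9 (at least 234-fold) were also without reads in EV and higher in KIF20A OE, and are named here after their values were seen. The largest falls on that scale were those of DKK1, of CCND1, the gene of cyclin D1 and a Wnt target in some tissues (934, 1032 and 1414 CPM against 28.3, 24.9 and 61.8), and of the ligand gene WNT7B (80.6, 47.1 and 63.6 CPM against 1.31, 0.541 and 2.30). Of 14 feedback or target genes, 9 were higher and 4 lower, again on the deposited scale.

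**Figure D5:**
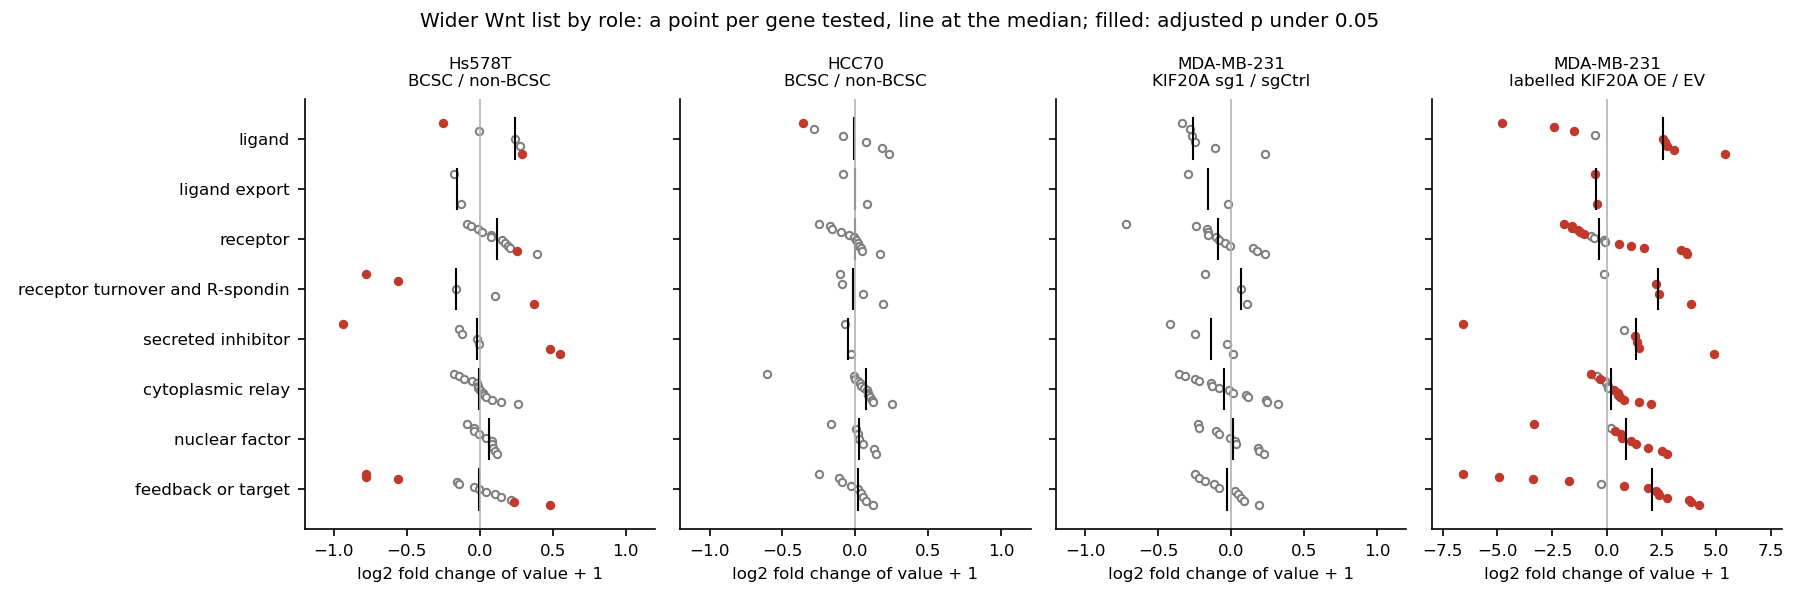
Log2 fold change of the value plus 1 (horizontal axis, wider in the last panel) of each tested gene of the 90-gene Wnt list, by role and comparison; filled points passed an adjusted p of 0.05 and black lines are medians. Filled points lie on both sides of 0 in Hs578T (6 higher, 5 lower) and in the libraries labelled KIF20A OE (36 higher, 18 lower), with 1 in HCC70 and 0 with KIF20A sg1.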

How the data were processed

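Poly-A RNA of 24 libraries was sequenced with paired ends and aligned to GRCh38; the submitters' processing notes name HISAT2 2.0.5 and featureCounts 1.5.0-p3, and the annotation was not given in the sources used here. For Hs578T and HCC70 the authors deposited TPM (transcript-length-scaled values). The table of the depletion experiment holds a signal that the authors call CPM, reads divided by 1 factor per library. EV and KIF20A OE have deposited CPM values. No sample column was left unused (0). Whole reads were recovered for 100% of genes in all 4 tables (within 0.02 reads, or 0.002 in ratios of TPM).

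Genes whose mean over a comparison's 6 libraries reached 1 were tested by limma 3.58.1 in R 4.3.3 (trend, two-sided) on log2(value + 1), with Benjamini-Hochberg adjustment over all genes of the comparison, and by the interaction of fraction and line over 12 sorted libraries. The script was tested on simulated data. Alternatives were a pseudocount of 0.1, no minimum, median-of-ratios scaling, a replicate block, count tests of the recovered reads (edgeR 4.0.16, DESeq2 1.42.0), and leaving out each library. The authors used DESeq2; it needs counts, which the tables do not hold. Intervals of limma are 95% confidence intervals of the log2 fold change, computed from its SE.

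The members, lists and tests were chosen with earlier results of these data known. Named were all 10 members; of the 90-gene Wnt list, genes called in Hs578T, HCC70 or KIF20A sg1, and in KIF20A OE the 3 largest rises and 3 largest falls with a mean of at least 5 CPM in 1 group; KIF20A; and markers. Other software was matplotlib 3.10.9, pandas 2.3.3 and numpy 2.4.6 under Python 3.11.15.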

Additional observations from a re-analysis of the deposited data

Results flagged for a closer look

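The change between BCSCs and non-BCSCs differed between the lines for 4 of the 47 genes of the Wnt list tested by the interaction of fraction and line, and for KIF20A, each given as the log2 fold change in HCC70 minus that in Hs578T (limma, adjusted over 11668 genes, of which 7.11% were called, so that the count says nothing particular to the Wnt list). None of the 10 members was among them. The difference was 0.85 ± 0.12 (SE) for NKD1 (adjusted p = 0.00299) and 0.84 ± 0.13 for RNF43 (adjusted p = 0.00349), both feedback genes that fell in BCSCs of Hs578T. In HCC70, NKD1 was 3.11, 2.94 and 3.04 TPM in non-BCSCs and 3.38, 3.19 and 3.14 TPM in BCSCs, and RNF43 was 7.58, 8.10 and 9.38 TPM against 9.17, 8.17 and 8.72. WNT7B (-0.56 ± 0.11, adjusted p = 0.0155) and DVL3 (0.29 ± 0.06, adjusted p = 0.0191) were named here after their values were seen. For KIF20A the difference was 0.35 ± 0.08 (adjusted p = 0.0292), with log2 fold changes of 0.80 in HCC70 and 0.45 in Hs578T. Line is also the batch, so they cannot be told apart.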

How the results depend on the processing

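All alternatives were set with earlier results known, and the cause of each change below was not tested. In Hs578T, 953 genes were called, against 1806 with edgeR and 1466 with DESeq2 on recovered reads. With a library left out, 343 to 865 genes were called, lowest without non-BCSC replicate 2, and members called ranged from 1 to 3. With edgeR, DESeq2 and the median of ratios, LRP6 was called beside DKK1, WNT5A and WNT5B. In HCC70, 374 genes were called, against 178 with no minimum, 232 with the median of ratios, 747 with edgeR, 1148 with DESeq2 and 32 to 270 with a library left out, lowest without BCSC replicate 1; no member was called under any of them. With KIF20A sg1, 0 genes were called, against 16 with DESeq2 and 0 to 144 with a library left out, 144 without sgCtrl replicate 3 and 5 without KIF20A sg1 replicate 2. For the interaction, 830 genes were called, against 1393 with DESeq2 and 291 to 1225 with a library left out, lowest without Hs578T non-BCSC replicate 2, and members called ranged from 0 to 1, the 1 being DKK1 without HCC70 non-BCSC replicate 2. For KIF20A OE, 5 to 6 members were called with a library left out.

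The replicate block called 128 genes in HCC70 and 302 for the interaction and changed no call of a member. Replicate numbers did not pair the libraries: of 12 same-numbered pairs, 1 had a correlation of deviations over 0.1 (range -0.161 to 0.185). Between different numbers the range was wider, -0.217 to 0.276, with both ends in the KIF20A sg1 comparison. In KIF20A OE against EV, all 6 libraries correlated best with their own number, a hint from the data only, and in Hs578T and with KIF20A sg1 0 of 6 did.

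Of 616 values of single members under the alternatives, 556 kept direction and side of the threshold, 15 lost a call, 17 gained one and 28 changed sign, none of these in a called member. In HCC70, TCF7 was -0.0059 with the median of ratios, -0.0065 with edgeR and -0.0078 with DESeq2; with a library left out, AXIN2 ranged from -0.024 to 0.12, TCF7 from -0.030 to 0.049, DKK1 from -0.14 to 0.10 and ROR1 from -0.080 to 0.068. With KIF20A sg1 the ranges were -0.15 to 0.24 for TCF7, -0.25 to 0.13 for FZD7, -0.17 to 0.062 for LRP6 and -0.061 to 0.10 for CTNNB1. For the interaction, TCF7 ranged from -0.071 to 0.014, and FZD7 was -0.0095 with the median of ratios and -0.0015 with edgeR. Few reads limit WNT5A in sgCtrl, KIF20A sg1 and EV, with 1 to 30 reads a library, and DKK1 in KIF20A OE, with 20 to 28, and in HCC70, with 32 to 53.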
